A study of Sus scrofa with 20 samples.

Results

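SIX2, SIX4, TBX18, MEOX1, MEOX2, PRRX1, EN1 and GSC encode transcription factors that give mesenchymal cells of the embryo their position and fate. Their RNA was compared between backfat, the subcutaneous fat of the back, and liver of Nanchukmacdon pigs. They were chosen as 9 listed gene symbols. The ninth, TBX15, was paired with no Ensembl identifier in the table of gene names used, so it was skipped and is not analysed here. The 8 genes are 8 of 31907 genes in the count table, and all 8 were among the 16275 genes that passed the filter on low counts. RNA-seq libraries came from backfat and liver of normal boars aged 22 months by the labels, with 5 libraries per tissue. Both tissues carry the same boar numbers in the column names (65, 67, 69, 71 and 72), which are used here as library names. No treatment or genetic change separates the groups, so tissue is the only contrast, and each library is made from bulk tissue. Bisulfite sequencing of the same tissues was not used here, because its processed values carry no gene positions.

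A homeobox is the stretch of a gene that encodes the homeodomain, a helical domain that binds DNA, and a T-box encodes a DNA-binding domain of another fold. In the embryo these factors mark regions of mesoderm and neural crest, and the connective tissue, fat and muscle that derive from those regions can keep expressing them in the adult. SIX2 and its relatives bind DNA together with EYA and DACH partners. MEOX1 and MEOX2 act in the somites, PRRX1 in mesenchyme of limb and face, and TBX18 in somites, epicardium and the mesenchyme around the ureter. EN1 is best known from the midbrain-hindbrain boundary and also marks precursors of back dermis, while GSC is known from the organizer of the gastrula. Liver parenchyma arises from endoderm, under a different set of homeobox genes.

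Except for TBX18, these genes share a homeobox, and the stretch around its invariant tryptophan codon is shown because it is the part that makes them 1 superfamily. The sequences were read from the RefSeq annotation of Sscrofa11.1 on the coding strand, from 3 codons before that tryptophan, and each is 30 bases long. Capitals mark the 11 bases that are identical in all 7 genes. The stretch lies in 1 coding exon of SIX2 (chr3:95460645-95460674, plus strand), SIX4 (chr1:189681542-189681571, minus strand), MEOX1 (chr12:19450405-19450434, plus strand) and MEOX2 (chr9:84945373-84945402, minus strand). It is interrupted by an intron in PRRX1 (chr4:80441151-80445773, minus strand). The stretches of these 5 genes are printed.
SIX2: gTcagcaacTGGTTcaAgAACcggcGgcag
SIX4: gTcagcaacTGGTTcaAgAACcgccGgcag
MEOX1: gTcaaagtgTGGTTccAgAACcgaaGgatg
MEOX2: gTgaaagtcTGGTTccAaAACaggcGaatg
PRRX1: gTgcaggtgTGGTTtcAgAACcgaaGagcc
Over the whole homeobox of 180 bases, SIX2 and SIX4 were identical at 131 bases (72.8%), with a longest identical run of 26 bases, and MEOX1 and MEOX2 were also identical at 131 bases, with a longest run of 12. PRRX1 and GSC, both of the paired type, shared 60.6% of the bases. The least alike homeoboxes were those of SIX2 and PRRX1 and of SIX4 and MEOX2, with 36.1% each. Reads that mapped to several places were not counted by the authors. The longest identical run here, 26 bases, is shorter than a single read by the study's methods. A loss of reads between these genes was not tested.

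All 8 genes were higher in backfat than in liver. Here and throughout, a gene is called where its log2 fold change reaches 2 and its adjusted p does not exceed 0.05 (edgeR's quasi-likelihood test, Benjamini-Hochberg over 16275 genes), and each of the 8 met both criteria. By the same criteria 11.1% of all genes tested were higher in backfat and 11.2% were higher in liver. Each of the 8 genes also had every backfat library above every liver library, which held for 22.9% of all genes tested. The median log2 fold change of the 8 genes was 6.06, against 0 for all genes tested. It was again 6.06 with SIX2, which had no liver count, set at its bound. That bound still lies above the middle values, so the median could not change and this is no check. At least 1 liver library held under 10 counts for 5 of the genes, so these could pass the filter through their backfat counts, and the count of 8 is given as a description and not as support for a difference. Levels are given as CPM after TMM normalization, the counts of a gene scaled to a common library size. The p-values set the difference between tissues against the spread among libraries of a tissue, in a model that leaves out the boar. In bulk tissue, fewer cells of a type and less RNA per cell cannot be told apart.

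The libraries held between 43820042 and 61772737 counts. Adipocyte markers (6 genes, among them ADIPOQ and PLIN1) summed to between 9350 and 12900 CPM in backfat and to between 11 and 15.7 CPM in liver, and hepatocyte markers (6 genes, among them ALB) to between 171 and 571 CPM in backfat and between 26100 and 98700 CPM in liver. The labelled tissues thus carried their own markers. Liver 67 stood apart: mitochondrial genes took 44.5% of its counts, against 6.38% to 20.2% in the other 9 libraries, its hepatocyte sum was the lowest of the livers, and its skeletal muscle sum was 147 CPM against 0.474 to 1.37 CPM in the other 4. Backfat 69 stood apart by its hepatocyte sum of 571 CPM against 171 to 216 CPM in the other 4. Without both libraries, all 8 genes were again called higher in backfat. When libraries were scaled by their size only, without TMM factors, the median over all genes moved to 0.71 on the log2 scale, and 68.2% instead of 49.9% of all calls were higher in backfat. Relative to that median, the log2 fold changes of the 8 genes under that scaling lay between 4.61 (TBX18) and 11.71 (SIX2, fitted against 0 counts).

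**Figure D1:**
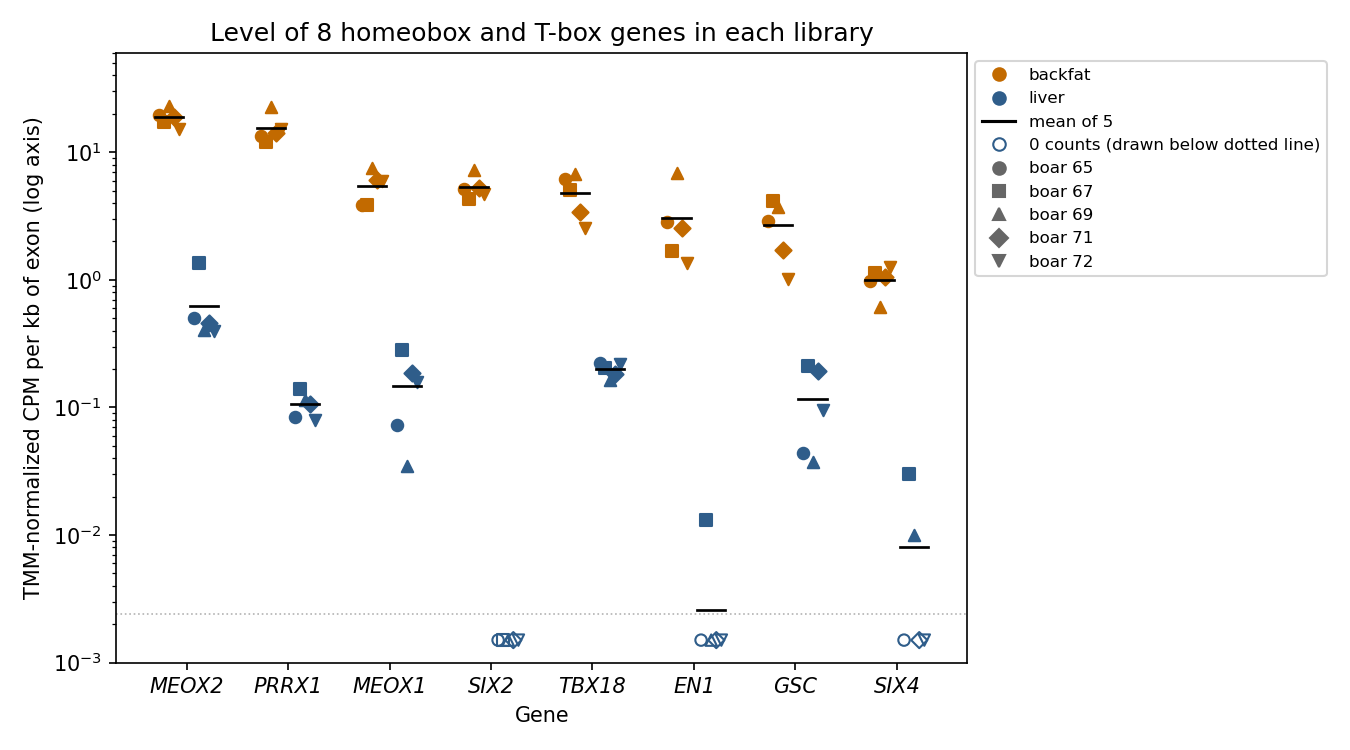
Level of each gene in the 10 RNA-seq libraries, as TMM-normalized CPM per kb of exon on a log axis, with 1 point per library, symbols for boars and bars for the mean of 5 libraries. Open symbols below the dotted line are libraries with 0 counts. In all 8 genes the backfat points lie above the liver points, and SIX2 has no count in any liver library.

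SIX2 (ENSSSCG00000008446; chr3:95460046-95463428, plus strand, 2 exons) keeps progenitor cells of the nephron undifferentiated and acts in facial mesenchyme. In backfat it had 10.3, 8.63, 14.7, 10.5 and 9.42 CPM in boars 65, 67, 69, 71 and 72, from 549 to 918 counts per library. No count was found in any of the 5 liver libraries. The groups did not overlap, and backfat 69 was the highest library. Taking 3 counts over the 5 livers as the upper limit behind an empty group, SIX2 was at least 684-fold higher in backfat (adjusted p = 2.3e-07). This limit covers counting error only.

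SIX4 (ENSSSCG00000005089; chr1:189670390-189682378, minus strand, 3 exons) acts in muscle precursors of the somite. Its backfat levels were 6.23, 7.14, 3.87, 6.61 and 7.96 CPM in the same order of boars. Liver held 7 counts in boar 67 (0.189 CPM), 3 counts in boar 69 (0.0637 CPM) and none in the other 3 libraries. Liver was thus near 0 with liver 67 as its highest library, and backfat 69, which was highest for SIX2, was lowest for SIX4. The log2 fold change was 6.88 ± 0.73 (SE; adjusted p = 5.72e-06) and rose to 8.20 without liver 67. The ratio of the pooled counts was 122, with an exact 95% counting interval from 66.5 to 256.

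TBX18 (ENSSSCG00000004290; chr1:53836939-53867460, minus strand, 8 exons) is the T-box gene among the 8. Backfat had 24.4, 20.4, 26.8, 13.7 and 10.2 CPM in boars 65, 67, 69, 71 and 72, and liver had 0.898, 0.810, 0.658, 0.727 and 0.868 CPM. Boars 71 and 72 were the lowest in backfat, while the liver levels were the most even of the 7 genes detected there. Backfat was higher by 4.59 ± 0.30 on the log2 scale (SE; adjusted p = 1.08e-07). TBX18 had at least 23 counts in every library, so both tissues were measured above the floor.

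MEOX1 (ENSSSCG00000017376; chr12:19431397-19452430, plus strand, 3 exons) is needed for the somite compartment that forms the vertebrae. Its levels were 11.8, 11.99, 23.4, 18.6 and 18.4 CPM in backfat and 0.224, 0.864, 0.106, 0.569 and 0.488 CPM in liver, in the order of boars given above. The lowest backfat library was 13.7 times the highest liver library. The log2 fold change was 5.24 ± 0.48 (SE; adjusted p = 1.51e-06). Boars 65 and 67 were lowest in backfat, unlike for TBX18.

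MEOX2 (ENSSSCG00000015357; chr9:84945178-85009939, minus strand, 3 exons) acts in limb muscle precursors and in vascular endothelium and smooth muscle. In backfat it had 60.8, 53.8, 71.6, 58.7 and 47.4 CPM, the most even levels of the 8 genes, with a highest library 1.51 times the lowest. In liver it had 1.57, 4.21, 1.25, 1.42 and 1.25 CPM, of which the 4.21 of liver 67 lay apart from the other 4. The log2 fold change was 4.91 ± 0.37 (SE; adjusted p = 2.77e-07), and without liver 67 it was 5.37. Liver 67 is also the library with the high skeletal muscle markers, whose part in the MEOX2 level was not tested.

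PRRX1 (ENSSSCG00000031503; chr4:80427682-80502689, minus strand, 4 exons) marks mesenchyme of the limb buds and face and stromal cells of many adult tissues. Backfat had 59.5, 53.0, 101, 63.1 and 66.9 CPM and liver 0.374, 0.621, 0.510, 0.474 and 0.353 CPM. Both groups were tight apart from backfat 69, and the lowest backfat library was 85.4 times the highest liver library. PRRX1 had the smallest adjusted p of the 8 genes (1.79e-09), with a log2 fold change of 7.19 ± 0.27 (SE).

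EN1 (ENSSSCG00000015715; chr15:24402605-24408377, minus strand, 3 exons) had 5.89, 3.46, 14.3, 5.32 and 2.83 CPM in backfat. Liver had 1 count in boar 67 (0.0270 CPM) and none in the other 4 libraries. Backfat 69 was far above the other 4, and the highest backfat library was 5.06 times the lowest, the widest range of the 8 genes. The pooled counts differed by a ratio of 1210, with an exact 95% counting interval from 217 to 47900, so the size of the fold is only loosely bounded (adjusted p = 7.27e-07). The adjusted p was 5.88e-07 without backfat 69 and 2.85e-05 without liver 67, after which no liver count was left.

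GSC (ENSSSCG00000002490; chr7:116099053-116101153, minus strand, 3 exons) was the gene with the fewest counts in backfat, between 68 and 313 per library. Its levels there were 3.30, 4.78, 4.27, 1.96 and 1.17 CPM, and in liver 0.0499, 0.243, 0.0425, 0.221 and 0.108 CPM, from 2 to 9 counts per library. As for TBX18, boars 71 and 72 were the lowest in backfat. The lowest backfat library was 4.80 times the highest liver library, the narrowest gap of the 7 genes detected in liver. GSC was higher in backfat by 4.56 ± 0.59 on the log2 scale (SE; adjusted p = 3.05e-05).

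Levels of different genes were compared per length of exon. In backfat MEOX2 was the most abundant with 18.8 ± 2.88 CPM per kb (SD, n = 5), followed by PRRX1 with 15.5 ± 4.21. MEOX1 (5.46 ± 1.60), SIX2 (5.33 ± 1.16) and TBX18 (4.78 ± 1.76) formed a middle group, and EN1 (3.07 ± 2.23), GSC (2.71 ± 1.33) and SIX4 (1.01 ± 0.243) were lowest, all in CPM per kb (SD, n = 5). MEOX2 exceeded PRRX1 in 5 of 5 libraries by ratios from 1.00 to 1.45, so the margin was small in some libraries. PRRX1 exceeded MEOX1 in 5 of 5 libraries by 2.37 to 3.51 times. From MEOX1 downward no neighbour was ahead in all libraries: MEOX1 exceeded SIX2 in 3 of 5, SIX2 exceeded TBX18 in 3 of 5, TBX18 exceeded EN1 in 4 of 5, EN1 exceeded GSC in 3 of 5, and GSC exceeded SIX4 in 4 of 5. In liver MEOX2 was again the highest, at 0.623 ± 0.410 CPM per kb, followed by TBX18 with 0.198 ± 0.0249 (SD, n = 5). Summed over the 8 genes, backfat held 54.8, 49.5, 78.6, 53.1 and 47.2 CPM per kb and liver 0.930, 2.23, 0.764, 1.12 and 0.951 CPM per kb in boars 65, 67, 69, 71 and 72.

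**Figure D2:**
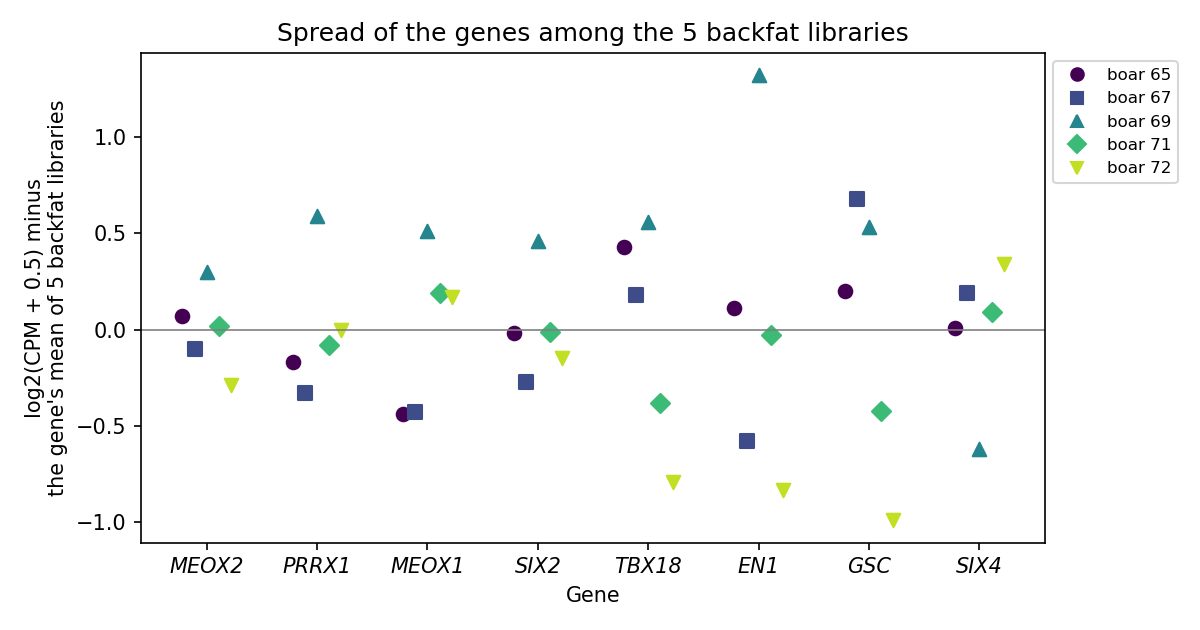
Deviation of each backfat library from the gene's mean over the 5 backfat libraries, on the log2(CPM + 0.5) scale, with 1 symbol and colour per boar. Boar 69 is the highest for 6 of the 8 genes and the lowest for SIX4. Boar 72 is the lowest for MEOX2, TBX18, EN1 and GSC.

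Within backfat the 8 genes did not vary as 1 block. The SD of the log2 level over the 5 libraries was 0.22 for MEOX2, 0.28 for SIX2, 0.35 for PRRX1, 0.37 for SIX4 and 0.42 for MEOX1, against a median of 0.27 for all genes tested. TBX18 (0.57), GSC (0.70) and EN1 (0.83) were more variable. Backfat 69 was the highest library for SIX2, TBX18, MEOX1, MEOX2, PRRX1 and EN1. The share of all genes with their highest backfat level in that library was not counted. In the same library the summed mural markers (6 genes of pericytes and smooth muscle, among them RGS5 and ACTA2) were 1020 CPM, against 730 to 807 CPM in the other 4, and the endothelial sum was the highest of the 5, at 1300 CPM. Of the mural markers, RGS5 (312 CPM), MYH11 (111 CPM) and NOTCH3 (94 CPM) were highest in boar 69. ACTA2 was highest in boar 67, and PDGFRB and CSPG4 were highest in boar 65. Stromal progenitor markers (6 genes, among them PDGFRA and DCN) summed to 1480, 1670, 2090, 2170 and 2500 CPM in boars 65, 67, 69, 71 and 72, most of it LUM and DCN. Within that list PDGFRA (75.4 CPM), PI16 (25.6 CPM) and CD34 (167 CPM) were highest in boar 69. LUM (939 CPM) and DCN (1390 CPM) were highest in boar 72, and DPP4 (4.78 CPM) in boar 67. DPP4 was itself called higher in liver, with a log2 fold change of -5.46. TBX18 and GSC were lowest in boars 71 and 72, as was the skeletal muscle sum, which was 392, 104 and 147 CPM in boars 65, 67 and 69 and 23.8 and 7.63 CPM in boars 71 and 72. The endothelial sum (907 and 776 CPM) and the adipocyte sum (9560 and 9350 CPM) were lowest in boars 71 and 72 as well. SIX4 was highest in boar 72, where that muscle sum was lowest. The part of these cell types in the levels was not tested.

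**Figure D3:**
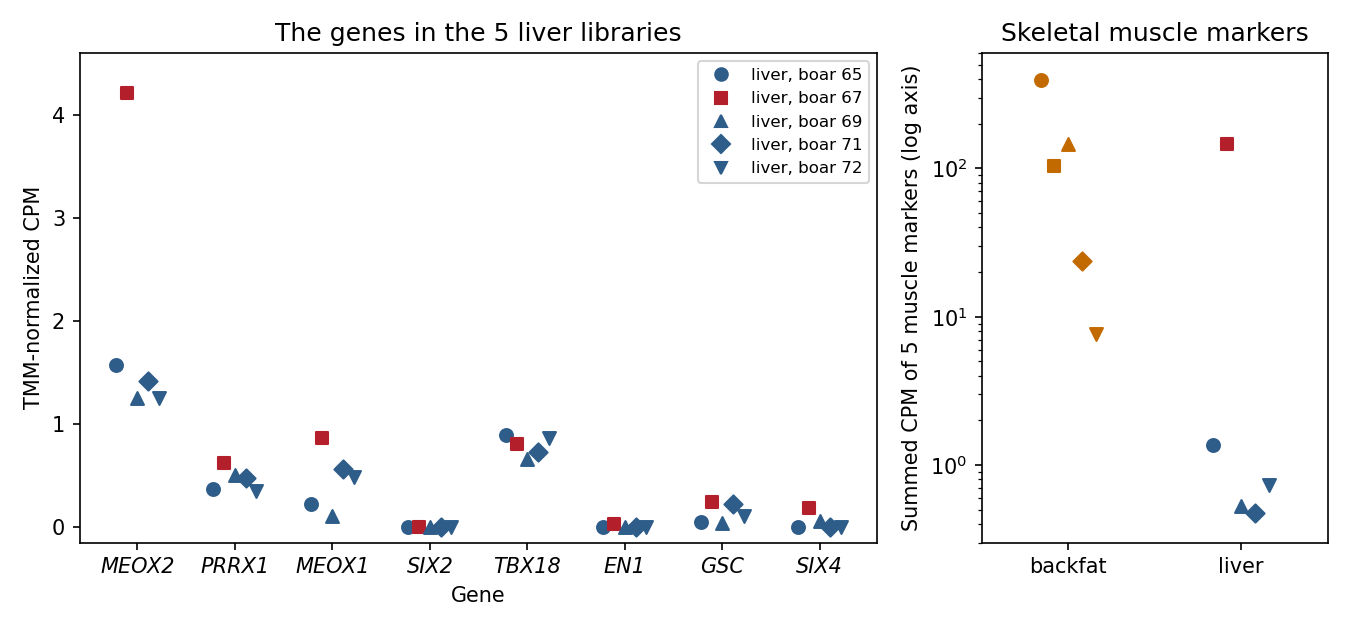
Left, TMM-normalized CPM of the genes in the 5 liver libraries, with liver 67 in red. Right, summed CPM of 5 skeletal muscle markers in all 10 libraries on a log axis. Liver 67 is the highest liver library for 6 of the 7 genes detected in liver, for some of them on few counts, and holds 147 CPM of muscle markers.

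In liver 67, 6 of the 7 genes detected in that tissue had their highest liver level, TBX18 being the exception. Several of these rest on few counts: EN1 on 1, SIX4 on 7 and GSC on 9, against 7 for GSC in liver 71. PRRX1 had 23 counts in that library, against 24 in liver 69 before scaling. How many of all genes have their highest liver level in liver 67 was not counted. The muscle markers there were ACTA1 (106 CPM, against at most 0.798 CPM in the other livers), CKM (28.9 CPM) and TNNC2 (12.1 CPM). The myogenic regulators MYOD1 and MYF6 had 9 counts and 1 count in that library. Skeletal muscle was represented by 5 of 9 listed markers, those with an identifier. Stellate cell markers (LRAT, RELN, COLEC11, LHX2, DES and HGF) mark the mesenchymal cells of liver. They summed to between 135 and 187 CPM over the livers and to between 22.1 and 72.9 CPM over the backfat libraries. Of the 6 genes, 4 were called higher in liver. DES (log2 fold change -0.98) and HGF (1.05, toward backfat) were not called, and they made up most of the highest backfat sum (35 and 29.4 CPM in boar 69). Mural markers summed to 285 CPM in liver 67, against 130 to 225 CPM in the other livers, and the stellate sum was lowest there, at 135 CPM. LRAT, RELN, COLEC11 and LHX2 were the lowest of the livers there, while DES (52.1 CPM) and HGF (8.34 CPM) were the highest. Adipocyte markers summed to 15.7 CPM in liver 67, against 11 to 15.1 CPM in the others, with FABP4 at 7.80 CPM, while PLIN1 (1.11 CPM) and CIDEC (1.54 CPM) were the lowest of the livers there, and ADIPOQ was between 0 and 0.0637 CPM over the 5 livers. Skin markers (4 genes) summed to between 6.11 and 7.64 CPM in backfat and between 6.50 and 15.2 CPM in liver. Nearly all of this was KRT10 (6.04 to 7.45 CPM in backfat, 6.50 to 15.2 CPM in liver), so the sum says little about skin. In backfat and liver, mesothelial markers (3 genes) summed to at most 0.791 CPM and 1.65 CPM, and leukocyte markers (6 genes) to between 142 and 300 CPM and between 269 and 422 CPM. The part of these cells in the liver levels was not tested.

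The relatives of the 8 genes were taken from 8 family lists with 109 symbols, of which 100 had an identifier and 55 passed the filter. Of these 55, 21 were called higher in backfat and 8 were called higher in liver, beside 11.1% and 11.2% of all genes. These genes too could pass the filter through 1 tissue alone, so the counts are descriptions. Among the relatives of SIX2 and SIX4, SIX5 was at 43.0 ± 3.97 CPM in backfat and 49.3 ± 12.8 CPM in liver (SD, n = 5). SIX3 had no count, and SIX6 did not pass the filter. Of the 4 EYA and DACH cofactors tested, EYA2 (log2 fold change 2.19) and DACH1 (2.34) were higher in backfat, and the median of the 4 was 1.75.

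Of 8 other T-box genes tested, TBX5, which patterns heart and forelimb, was called higher in backfat, with 0.412 to 3.75 CPM there and 1 count over the livers (ratio 316, interval 56.5 to 12500). The other 7 were not called, and the median log2 fold change of the list was -0.18. Backfat TBX5 was also low in absolute terms, at 0.765 CPM per kb beside 4.78 CPM per kb for TBX18.

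Among paired-type relatives of PRRX1 and GSC, 3 of 5 tested were called higher in backfat and none was called higher in liver, with a median log2 fold change of 3.86. PRRX2, the close paralog of PRRX1, had a log2 fold change of 3.86 ± 0.54 (SE) and 19.2 CPM per kb in backfat, and SHOX2, a limb patterning gene, had 5.40 ± 0.31 (SE). Of 5 Antennapedia-class genes outside the HOX clusters, the class of MEOX1, MEOX2 and EN1, MSX2 (at least 75.9-fold, no liver count) and DLX4 (5.63 ± 0.46, SE) were called higher in backfat, and the median was 1.28. MSX1, the paralog of MSX2, was at 6.66 ± 2.97 CPM in backfat and 8.45 ± 4.36 CPM in liver (SD, n = 5).

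Of 14 TALE-class genes tested, 5 were higher in backfat and the median log2 fold change was 0.93. The 5 were Iroquois genes and the tendon factor MKX (3.38 ± 0.67, SE): IRX1 was at least 416-fold and IRX2 at least 173-fold higher, both with no liver count. IRX3 (7.05 ± 0.50, SE) had 40 counts over the livers, and IRX5 (6.94 ± 0.82, SE) had only 5, so its fold is loosely bounded. IRX1 varied from 0.458 to 11.5 CPM between backfat libraries. Of 11 mesodermal factors of other classes (median 2.61), 7 were higher in backfat, among them PAX1 (at least 59.8-fold, no liver count), OSR2 (7.90 ± 0.56, SE, with 4 counts over the livers), TWIST2 (7.19 ± 0.60, SE) and NKX3-2 (at least 18.6-fold, no liver count). In the same list HAND2 (log2 fold change -8.83 ± 0.70, SE), TCF21 (-7.78 ± 0.87, SE) and PAX9 (-2.09 ± 0.33, SE) were called higher in liver, so mesodermal factors were found on both sides. TCF21 and HAND2 are known from visceral and lateral plate mesoderm. Of 6 homeobox genes of hepatic endoderm (median -6.86), 5 were higher in liver, among them ONECUT1 (-11.16 ± 0.62, SE), ONECUT2 (at least 233-fold, no backfat count) and PROX1 (-5.97 ± 0.55, SE).

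**Figure D4:**
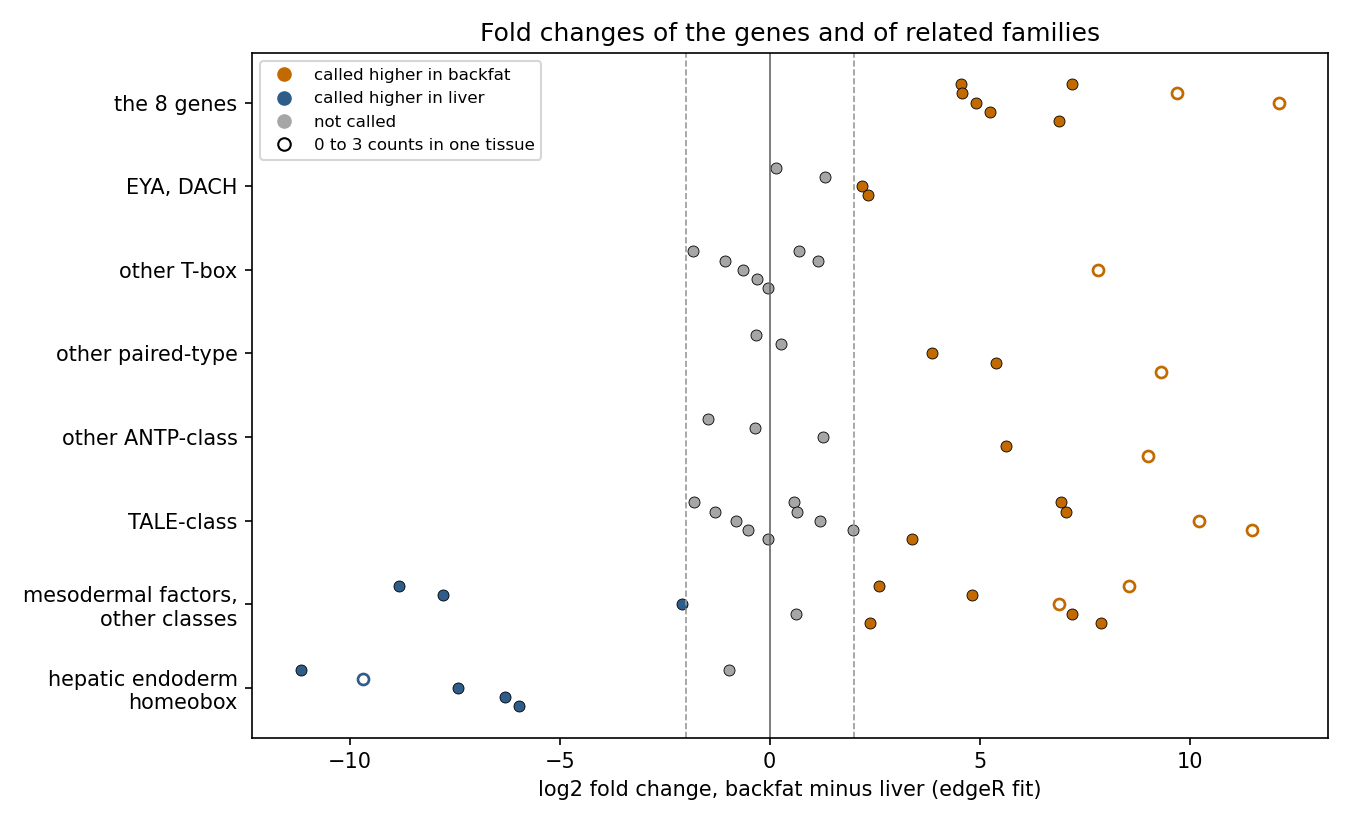
Fitted log2 fold change (backfat minus liver) of the 8 genes and of the tested members of 7 related lists, coloured by call, with dashed lines at -2 and 2. Open points have 0 to 3 counts in 1 tissue, and their fitted position depends on the prior count and is no measured fold. The T-box list centres near 0, and the hepatic endoderm list lies to the left.

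The bases upstream of the genes differed widely in CpG content. Windows of 300 bp before the start of the RefSeq gene were compared with the same windows of 16306 protein-coding genes, whose median was 16 CpG. Genes outside the chromosomes, genes with a LOC symbol and windows with unknown bases were left out. SIX2 had 44 CpG, more than 94.9% of the windows, and EN1 had 32, more than 83.8%. TBX18 had 22, SIX4 and GSC had 14 each, MEOX2 had 12 and PRRX1 had 9. MEOX1 had 2, more than 5.1% of the windows. In SIX4, MEOX2 and GSC the transcript with the longest coding sequence starts 0, 3 and 14 bases before that sequence. For these genes the window may therefore include transcribed sequence. The study's own coordinates of SIX2 begin inside its window and inside the stretch printed below, so these may include transcribed sequence too. The last 200 bases before the start are printed for the genes with the most CpG, with each CpG in capitals.
SIX2, chr3:95459846-95460045, plus strand: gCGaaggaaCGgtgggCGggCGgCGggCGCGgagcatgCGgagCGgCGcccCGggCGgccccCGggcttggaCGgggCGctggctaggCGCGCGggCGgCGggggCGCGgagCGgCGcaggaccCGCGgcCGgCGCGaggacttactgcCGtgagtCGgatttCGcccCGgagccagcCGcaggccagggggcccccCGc
EN1, chr15:24408378-24408577, minus strand: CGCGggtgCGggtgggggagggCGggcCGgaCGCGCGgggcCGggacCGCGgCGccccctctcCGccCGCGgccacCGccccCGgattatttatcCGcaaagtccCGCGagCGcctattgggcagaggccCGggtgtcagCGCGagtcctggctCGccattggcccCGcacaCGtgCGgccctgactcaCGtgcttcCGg
These stretches held 35 CpG in SIX2 and 30 in EN1. All 8 genes were called higher in backfat, so a relation of the call to CpG content could not be tested among them. Of 4 motifs searched on both strands, none of which contains another, TATAAA was found in the window of MEOX2 and in 10% of all windows, and TCAGGTT, a site of the SIX2 family, in that of SIX4 and in 3.91% of all windows. TAATTA, a homeodomain site, was in none of the 8 windows and in 4.14% of all, and AGGTGT, a T-box site, was in none of the 8 and in 12.3% of all.

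**Figure D5:**
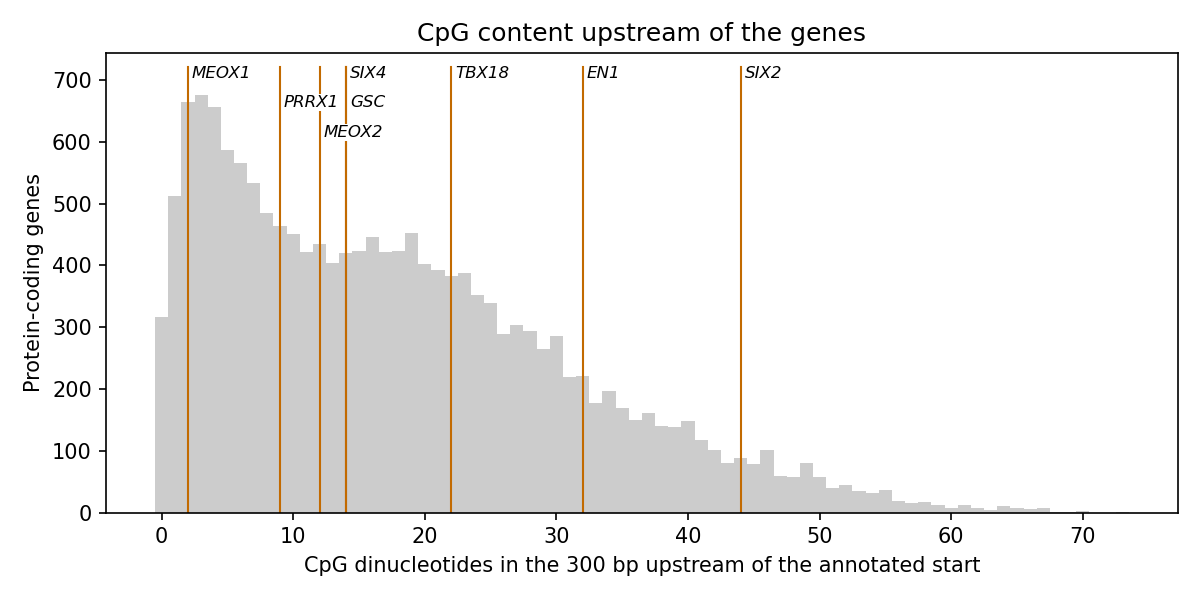
Number of CpG dinucleotides in the 300 bp before the annotated start, as a histogram over 16306 protein-coding genes in grey, with the 8 genes as lines. The genes span the histogram, from 2 CpG in MEOX1 to 44 in SIX2.

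The nearest protein-coding genes with a symbol and an Ensembl identifier were described in the same way. Of 16 neighbours 13 were tested, of which 3 were called higher in liver. AGMO, a lipid monooxygenase 14031 bp from MEOX2, had a log2 fold change of -5.30 ± 0.43 (SE), with 0.918 CPM in backfat and 36.2 CPM in liver. MARCO, a macrophage scavenger receptor 94557 bp from EN1, had -3.45 ± 0.40 (SE), and SERPINA5, a protease inhibitor 288227 bp from GSC, had -9.11 ± 1.71 (SE). Around SIX2, SRBD1 had 0.74 ± 0.22 (SE) and was not called, and SIX3 had no count in any library. The neighbours of TBX18 (CEP162, 0.38, and NT5E, 0.91) and of PRRX1 (SPIDR, -1.83, and GORAB, 0.95) were not called either, nor were MNAT1 beside SIX4 (1.88), ETV4 beside MEOX1 (-1.47), INSIG2 beside EN1 (-1.21) and DICER1 beside GSC (-0.51), all as log2 fold changes. SOST and SOSTDC1, beside MEOX1 and MEOX2, did not pass the filter.

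For each gene the genes of most like profile were taken, 3 apiece, by the root mean square difference of centred log2(CPM + 0.5) over the 10 libraries. All of these profiles include the contrast of the tissues, and the pseudocount narrows it for genes near 0 in liver, so a like profile need not have a fold change of like size. For SIX2 these were MARK1 (0.23), CDH13 (0.24) and CCDC85A (0.25), and for SIX4 PLAGL1 (0.26), NALCN (0.27) and CACHD1 (0.28). TBX18 was nearest to APCDD1 (0.20), STMN4 (0.30) and SPARCL1 (0.30), MEOX1 to AGPAT1 (0.24), SLC1A5 (0.26) and PLXDC1 (0.27), and MEOX2 to NPR1 (0.25), RBP7 (0.30) and DCLK1 (0.30). PRRX1 was nearest to BMAL2 (0.21) and SDR16C5 (0.30), EN1 to FFAR4 (0.24), ZDHHC22 (0.25) and SERTM1 (0.31), and GSC to CALCRL (0.24), GRHL1 (0.26) and SCN7A (0.27). With a pseudocount of 1, 6 of the 24 genes were among the nearest again, so the names depend on the pseudocount. Among the 8 genes themselves, SIX2 and MEOX1 were the most alike (0.37) and PRRX1 and GSC the least alike (1.93).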

How the data were processed

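Per the labels and the study's methods, total RNA of backfat and liver was made into poly(A) libraries and sequenced in pairs, with 5 libraries per tissue. The authors checked reads with FastQC, trimmed them with Trimmomatic, used HISAT2 for alignment to the Sscrofa11.1 genome, and counted pairs with featureCounts 2.0.1 over exons of the Ensembl release 99 annotation. The deposited values are raw counts of read pairs per gene, counted without strand and without multi-mapping or overlapping reads, so a gene and its antisense partner cannot be told apart. The exon length used for levels per kb is the authors' value. Numbers of cytosine calls from bisulfite sequencing were not used.

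The test was edgeR's quasi-likelihood test (edgeR 4.0.16, R 4.3.3), after filterByExpr by tissue and TMM, in a model of tissue alone, with Benjamini-Hochberg adjustment across the 16275 genes kept. Calls needed both a log2 fold change of 2 or more in size and an adjusted p not above 0.05. SE were derived from the fold change and the F statistic. Where a tissue had 0 counts, 3 counts over its 5 libraries were taken as the most that 0 allows, and intervals cover counting error only. Depth was 43820042 to 61772737 counts per library. Alternatives were DESeq2 1.42.0, limma 3.58.1 (voom), glmTreat, other scalings and filters, and leaving out libraries. The fits were tested on simulated counts. Genomic sequence and gene starts were read from RefSeq for Sscrofa11.1 in Python 3.11.15 with pysam 0.24.0, and figures were drawn with matplotlib 3.10.9.

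The genes named are the listed ones, up to 4 called genes of largest change from each family list, the 3 genes of most like profile for each, and the nearest genes on the genome. A few genes and sequences covered by that rule are left out and not reported. Some values of genes that were not called are given beside these and were chosen after they were seen. The members and lists were chosen with earlier results of these data known. Boar numbers come from the column names, not from the sample labels, and were taken to mark the same animal in both tissues. Deviations from the tissue means of same-numbered libraries were correlated by 0.036 to 0.226 over genes, and 3 of 5 backfat libraries matched the liver of their own number best.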

Additional observations from a re-analysis of the deposited data

Results flagged for a closer look

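In 35 groups of 5 libraries (each gene and each marker sum in each tissue), the library at either end was compared with the others by Dixon's ratio of its gap to the range, at its 95% critical value. Chance sets apart about 1 group in 20. For the 8 genes this singled out MEOX2 in liver 67 (4.21 CPM, against 1.25 to 1.57 CPM in the other livers), EN1 in backfat 69 (14.3 CPM, against 2.83 to 5.89 CPM) and EN1 in liver 67 (0.027 CPM from 1 count, against 0 in the other livers), where any single count in 1 library gives the highest possible ratio, so that this value carries no weight. Of the marker sums it singled out skeletal muscle in liver 67 (147 CPM, against 0.474 to 1.37 CPM), mural cells in backfat 69 (1020 CPM, against 730 to 807 CPM) and hepatocytes in backfat 69 (571 CPM, against 171 to 216 CPM). In backfat 69 the hepatocyte sum was mostly APOA1 (482 CPM), with ALB at 36.4 CPM. All of these values came from liver 67 or backfat 69.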

How the results depend on the processing

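All 8 genes were called higher in backfat, and none higher in liver, under DESeq2's size factors in edgeR, library size alone, no filter, DESeq2, limma-voom, glmTreat, without mitochondrial genes, without each library in turn, and without backfat 69 and liver 67 together. With the boar as a replicate block the number was again 8. With at least 10 counts in every library it was 3, because only TBX18, MEOX2 and PRRX1 were then tested among 13026 genes. The largest adjusted p of any of the 8 genes was 0.000723 (GSC, glmTreat). Over the alternatives the log2 fold change ran from 4.44 to 5.32 for TBX18, 4.75 to 5.66 for MEOX2, 7.02 to 7.90 for PRRX1, 4.97 to 5.99 for MEOX1, 6.56 to 8.36 for SIX4 and 4.31 to 5.35 for GSC. For EN1 and SIX2, with 1 and 0 liver counts, fitted values ran from 8.36 to 11.39 and from 9.65 to 12.42 and are no bounds. The related genes called higher in backfat and in liver numbered 24 and 7 with library size alone and 29 and 12 with DESeq2. Over all genes, 1814 were called higher in backfat and 1819 in liver, which became 2874 and 1340 with library size alone, 2518 and 2729 with no filter, 871 and 981 with at least 10 counts in every library, and 1126 and 1287 with glmTreat. Of the 24 genes of most like profile, 6 were shared with a pseudocount of 1.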
